A study of Mus musculus with 12 samples.

Results

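The 7 symbols described here are Tmem132a, Slc15a3, 3110062M04Rik, Tmem140, Sla2, Rab5if and AV051173, out of 24552 symbols in a count table from mouse macrophages. They were chosen because 4 of them are among the most counted symbols of the table and because genes on the 2 strands of the same locus share exon bases: Tmem132a with Slc15a3, 3110062M04Rik with Tmem140, and Sla2 with Rab5if. AV051173 was taken for its count alone. The choice used mean counts over all samples, so the levels that made these symbols stand out are given as a description and were not tested.

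Polyadenylated RNA was sequenced from mouse macrophages cultured out of bone marrow for 6 days with the growth factor M-CSF at 10 ng/ml. All 4 groups share that culture: M0 and M1 cells with vehicle, and M0 and M1 cells with ISRIB, each with 3 samples labelled as biological replicates. The pre-treatment lasted 1 h and was vehicle (DMSO) or 50 nM ISRIB, a compound that blocks the integrated stress response through the translation factor eIF2B. M1 cells then had LPS at 10 ng/ml and IFN-γ at 25 ng/ml for 16 h with vehicle or ISRIB still present, while the labels do not say what M0 cells received in those hours. Strain, sex and age are not given in the sources used here. The p-values measure the spread between these samples, and in bulk samples fewer cells of a type and less RNA per cell cannot be told apart.

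As background, LPS, a bacterial cell wall component, and IFN-γ, a cytokine of lymphocytes, together turn macrophages towards an inflammatory state called M1. Where genes on opposite strands share bases, a read can be assigned to the right gene only if the counting keeps the strand of the RNA. The labels describe a strand-specific library kit, but the strand setting of the counting is not given in the sources used here, so the counts of a symbol below cannot be told apart from reads of its opposite-strand neighbour.

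The libraries held 439976 to 514037 counts each. Of the 24175 symbols matched to GENCODE, 5838, or 24.1%, share exon bases with a gene on the other strand. In each library these held 91.5% to 93.2% of the counts on matched symbols. AV051173 was not matched, so its counts are left out of these shares. Among the 100 most counted of the matched symbols, 97 had such an overlap, and 52 lay on the minus strand, beside 49.8% of all matched symbols. The cell label was checked against 8 macrophage markers, of which 7 passed the count filter, and their summed counts ran from 110 to 461 per library. The markers of other cells were at or near 0: summed counts per library were 0 to 2 for T cells, 0 to 4 for B cells, 0 to 4 for neutrophils, 0 to 10 for dendritic cells and 0 for fibroblasts. Since even the macrophage markers had few counts here, a level near 0 is weak evidence on the presence of another cell type.

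The 4 highest of the chosen symbols are all on the minus strand, and the 4 genes they overlap are all on the plus strand. Positions are in the mouse build GRCm38, the same assembly as the mm10 named in the submitters' processing notes. Tmem132a, which encodes a single-pass membrane glycoprotein, lies at chr19:10857822-10869940, and Slc15a3, an endolysosomal transporter of histidine and small peptides, at chr19:10839727-10859362. Their last exons face each other and share 1541 bases, which is 33.9% of the exon bases of Tmem132a and 28.1% of those of Slc15a3. The shared stretch includes 1041 coding bases of Tmem132a and 0 coding bases of Slc15a3.

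3110062M04Rik is the older name of Cyren, which encodes an inhibitor of non-homologous end joining, a pathway of DNA double-strand break repair. It lies at chr6:34871771-34878060 and shares 2168 exon bases with Tmem140, a membrane protein gene at chr6:34863146-34874946. That is 50.8% of the exon bases of 3110062M04Rik and 37% of those of Tmem140, and it covers coding bases of both (249 and 555).

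Sla2, at chr2:156872457-156887192, encodes an adaptor known for damping antigen receptor signals in lymphocytes. It shares 731 exon bases in 3 blocks with Rab5if, at chr2:156863128-156873563, whose product takes part in inserting multipass proteins into the endoplasmic reticulum membrane. Rab5if is listed in the count table under its older name 1110008F13Rik. AV051173 is a long non-coding RNA at chr4:116684962-116686022, taken from RefSeq because GENCODE had no gene of that name. Its span covers 279 exon bases of Prdx1, in 2 blocks at the start of that gene, which is 9.17% of the exon bases of Prdx1. Prdx1 encodes a peroxiredoxin that removes hydrogen peroxide, lies at chr4:116685544-116700822, and is not among the 7 symbols. It is given beside AV051173 as its opposite-strand neighbour.

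**Figure D1:**
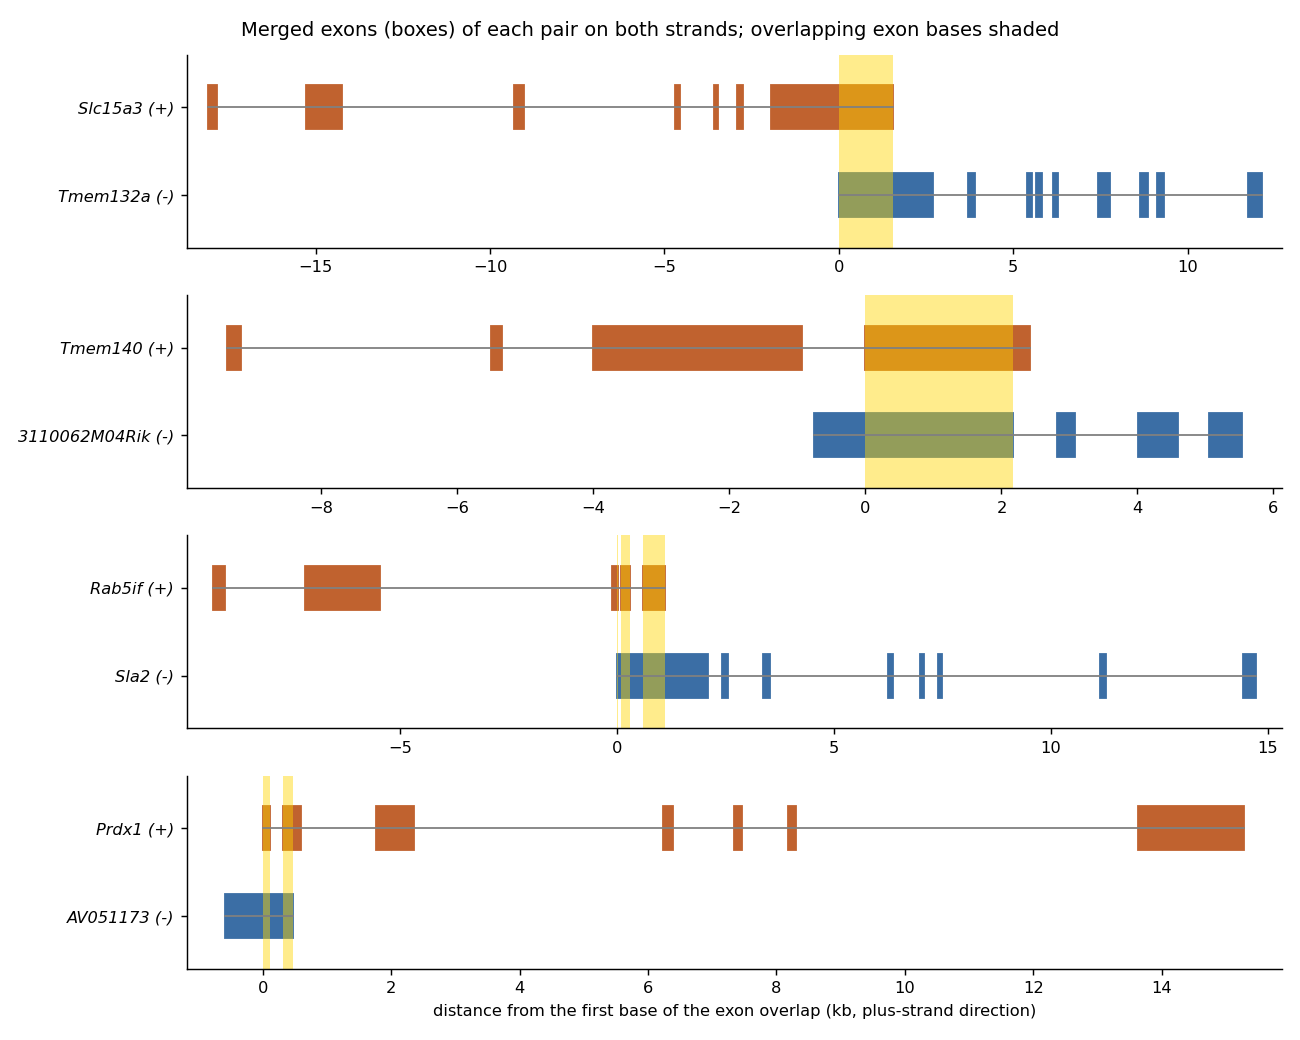
Exon maps of the 3 pairs and of AV051173 with Prdx1, plotted as distance in kb from the first shared exon base in the plus-strand direction, with plus-strand genes above and minus-strand genes below. Boxes are exons merged over transcripts (for AV051173 the gene's span), and shading marks shared bases. The 3 pairs meet at their 3′ ends, and AV051173 meets Prdx1 at the 5′ ends.

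The 250 bases before the transcription start are printed for Tmem140 and 3110062M04Rik, the pair whose symbols moved in opposite directions in M1 cells, and for AV051173, which rose most. They come from RefSeq on GRCm38.p6, 5′ to 3′ on the strand of each gene: chr6:34862896-34863145 on the plus strand for Tmem140, chr6:34878066-34878315 on the minus strand for 3110062M04Rik, and chr4:116686023-116686272 on the minus strand for AV051173. Capitals mark the core of an interferon-stimulated response element, which is GAAA, any 2 bases and GAAA again.

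Tmem140: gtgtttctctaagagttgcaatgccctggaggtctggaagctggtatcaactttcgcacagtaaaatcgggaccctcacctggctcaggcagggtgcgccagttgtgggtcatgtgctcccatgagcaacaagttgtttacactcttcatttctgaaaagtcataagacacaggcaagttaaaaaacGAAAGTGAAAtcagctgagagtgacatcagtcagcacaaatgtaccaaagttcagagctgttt

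3110062M04Rik: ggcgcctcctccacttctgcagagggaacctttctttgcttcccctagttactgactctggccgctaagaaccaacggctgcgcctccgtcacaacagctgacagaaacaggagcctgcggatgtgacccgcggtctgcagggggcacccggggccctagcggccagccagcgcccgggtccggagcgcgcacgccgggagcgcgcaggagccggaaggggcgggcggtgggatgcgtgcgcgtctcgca

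AV051173: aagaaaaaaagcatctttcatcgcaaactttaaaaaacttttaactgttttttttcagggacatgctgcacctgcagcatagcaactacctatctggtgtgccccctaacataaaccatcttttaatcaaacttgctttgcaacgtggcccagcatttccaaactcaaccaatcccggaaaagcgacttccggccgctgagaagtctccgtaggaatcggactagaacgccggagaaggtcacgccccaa

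Promoter windows of 300 bases, from 250 before to 50 after the start, were found for Tmem140, 3110062M04Rik, Sla2, Rab5if, AV051173 and Prdx1. That core, searched on both strands, matched 1 time among these 6 windows, in Tmem140, with its first base 63 bases before the start (offset -63), and 3.44% of all 32851 mouse promoters of the same length hold it. The gamma-activated site core TTCNNNGAA, held by 8.3% of promoters, the NF-kB site core (GGG, any 2 bases, TTTCC), held by 1.63%, and the ATF4 and C/EBP composite core TGATGNAA, held by 3.97%, had 0 matches in the 6 windows. These motifs can overlap, and a match or its absence describes only these letters.

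By mean count over the 12 samples, Tmem132a ranked 1st of all symbols with 17406, AV051173 ranked 2nd with 16871, 3110062M04Rik ranked 5th with 9354 and Sla2 ranked 7th with 8385. No count limit was set for the choice: Fdft1 (14237), Gm15441 (13173) and Ddb2 (9190) ranked between them, and Snx22 (7710) came just after Sla2. The plus-strand partners were far lower. Tmem140 had a mean of 117 counts (rank 510), Slc15a3 of 58.33 (rank 774) and Rab5if of 5 (rank 2596), while Prdx1 had 41.58 (rank 906). Other genes next to the pairs were also low, with means of 3.17 for Tmem109, 0.0833 for Cd6, 0.333 for Wdr91 and 6 for 5430405H02Rik. Together the 7 symbols took 5.78% to 6.3% of the counts of each M0 library and 15.3% to 16.9% of each M1 library.

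Levels are given as CPM, counts per 1000000 counts,, scaled between libraries by edgeR's TMM method, and genes are compared only per kb of exon. In vehicle M0 cells AV051173 stood at 6981 ± 283 CPM per kb (SD, n = 3; by its span) and Tmem132a at 6096 ± 711. Those neighbours in the order differed by less than the sum of their SDs. 3110062M04Rik followed at 3006 ± 193 and Sla2 at 2573 ± 206, with Tmem140 at 61.7 ± 5.76, Slc15a3 at 15.8 ± 4.18 and Rab5if at 1.3 ± 1.25.

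In vehicle M1 cells AV051173 was highest at 71469 ± 6082 CPM per kb, ahead of Tmem132a at 10789 ± 333, Sla2 at 9858 ± 459 and 3110062M04Rik at 7075 ± 390. Among the low symbols the order of Slc15a3 (33.4 ± 10.1) and Tmem140 (14.4 ± 1.89) was the opposite of that in M0, and Rab5if stood at 3.48 ± 3.03. With ISRIB each state had the same order as with vehicle. In ISRIB M0, AV051173 (7042 ± 958) and Tmem132a (5945 ± 349) again differed by less than the sum of their SDs. So did, in ISRIB M1, Tmem132a (11010 ± 330) and Sla2 (9916 ± 1352), Slc15a3 (32.1 ± 11.8) and Tmem140 (19.4 ± 9.06), and Tmem140 and Rab5if (10.8 ± 13.2).

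**Figure D2:**
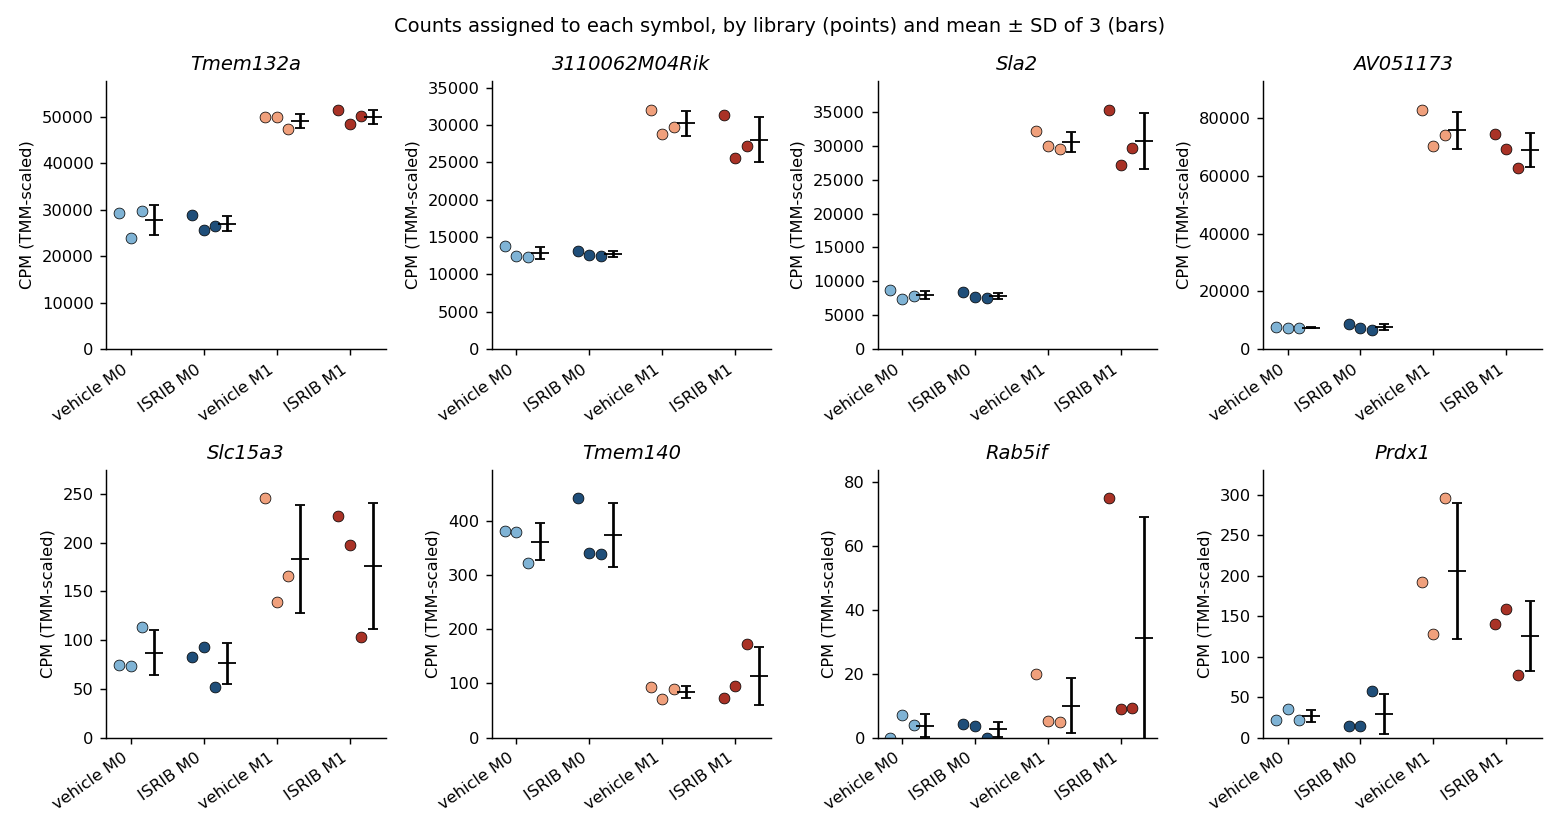
CPM of the 7 symbols and Prdx1 in the 4 groups, with a point per sample and the mean ± SD (n = 3); the axes are linear, start at 0 and differ between panels, and for Rab5if in ISRIB M1 the SD bar reaches below 0 and is clipped there. Tmem140 is the panel with the high values in M0, and AV051173 the panel with the widest gap between M0 and M1.

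The comparison of M1 with M0 asks how these symbols differ after LPS and IFN-γ. The mean count behind the choice includes the M1 samples and so favours symbols that are high in M1. The rises below, with vehicle and with ISRIB, are therefore not independent of the choice. In vehicle cells AV051173 was 10.2-fold higher in M1, Sla2 3.83-fold, 3110062M04Rik 2.35-fold, Slc15a3 2.11-fold and Tmem132a 1.77-fold, and Tmem140 was 4.26-fold lower. All 6 symbols that passed the count filter were called by edgeR's quasi-likelihood test at a Benjamini-Hochberg adjusted p of 0.05, 5 higher and 1 lower. The background was high: 44.8% of the 2356 symbols tested were called, 24.3% higher and 20.5% lower. The M0 and M1 CPM values did not overlap for any of the 6, and 52.7% of all tested symbols had no overlap either. Rab5if did not pass the filter and was not tested.

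AV051173 had 4172, 3989 and 3628 counts in the vehicle M0 samples and 33129, 27392 and 30833 in the vehicle M1 samples. Every M1 count was above every M0 count by several-fold, and the replicates of a group lay close together. The log2 fold change was 3.36 ± 0.104 (SE; 95% interval 3.14 to 3.57), with an adjusted p of 7.17e-19 by edgeR's quasi-likelihood test. In M1 it held 6.23% to 7.1% of all counts of a vehicle library, against 0.792% to 0.812% in M0. Of the 836 symbols with a mean of at least 50 counts, 27, or 3.23%, had a larger log2 rise.

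Prdx1, across from AV051173, had 12, 20 and 11 counts in vehicle M0 and 77, 50 and 123 in vehicle M1. The log2 fold change of Prdx1 was 2.93 ± 0.458 in vehicle (adjusted p 8.61e-06) and 2.09 ± 0.457 with ISRIB (adjusted p 0.000543), both by edgeR's quasi-likelihood test, so it rose in both. Prdx1 held 0.39% ± 0.269 of the counts of the pair in the 6 M0 samples and 0.225% ± 0.0933 in the 6 M1 samples.

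Sla2 had 4679, 4147 and 3862 counts in vehicle M0 and 12844, 11674 and 12264 in vehicle M1. The groups did not overlap. The log2 fold change was 1.94 ± 0.0995 (95% interval 1.73 to 2.14; adjusted p 1.18e-14, edgeR's quasi-likelihood test). The T cell markers Cd3e, Cd3d and Cd8a were at 0 counts in all 12 libraries and Cd4 had at most 2, in a table where marker counts are low throughout.

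Across from Sla2, Rab5if had 0, 4 and 2 counts in vehicle M0 and 8, 2 and 2 in vehicle M1. The 2 groups overlapped and no fold is given at these counts. In the ISRIB M1 samples it had 30, 4 and 4 counts, against 2, 2 and 0 in ISRIB M0, so the ISRIB states did not overlap, and the 30 counts of replicate 1 stand apart from all other libraries. This difference was not tested.

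3110062M04Rik had 7436, 6949 and 6063 counts in vehicle M0 and 12795, 11203 and 12385 in vehicle M1. It rose by a log2 fold change of 1.24 ± 0.0904 (95% interval 1.05 to 1.42; adjusted p 1.5e-11, edgeR's quasi-likelihood test). Its partner moved the other way. Tmem140 had 206, 212 and 159 counts in vehicle M0 and 37, 28 and 37 in vehicle M1, with no overlap. The log2 fold change of Tmem140 was -2.09 ± 0.263 (95% interval -2.63 to -1.55; adjusted p 3.16e-07, edgeR's quasi-likelihood test). Its promoter is the 1 of the 6 searched that holds the interferon-stimulated response element core, which 3.44% of all promoters hold. A link between that match and the change was not tested.

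Tmem132a had 15849, 13410 and 14708 counts in vehicle M0 and 19937, 19438 and 19686 in vehicle M1. The M1 counts were all higher. The log2 fold change was 0.82 ± 0.0864 (95% interval 0.65 to 1; adjusted p 1.45e-08, edgeR's quasi-likelihood test), the smallest of the 5 rises. Among the 836 symbols with a mean of at least 50 counts, 179, or 21.4%, rose more.

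Slc15a3 had 40, 41 and 56 counts in vehicle M0 and 98, 54 and 69 in vehicle M1. Its raw counts overlapped between the states, while its CPM did not (73.4 to 113.5 in M0 and 138.8 to 245.4 in M1). The log2 fold change was 1.08 ± 0.324 (95% interval 0.41 to 1.75), with an adjusted p of 0.00833 by edgeR's quasi-likelihood test. This call was the least firm of the 6. Without vehicle M1 replicate 1, which had the 98 counts, the log2 fold change was 0.82 with an adjusted p of 0.0763, and with library totals in place of TMM it was 0.77 with an adjusted p of 0.0544.

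Scaling by library totals alone lowered the median log2 fold change of all tested symbols by 0.302 in vehicle (shift -0.302) and by 0.288 with ISRIB (shift -0.288). The share of calls that were higher was then 41.3% in place of 54.2% in vehicle, and 39.4% in place of 53.4% with ISRIB. Relative to M0, the 5 rises and the fall kept their direction under each scaling tried.

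**Figure D3:**
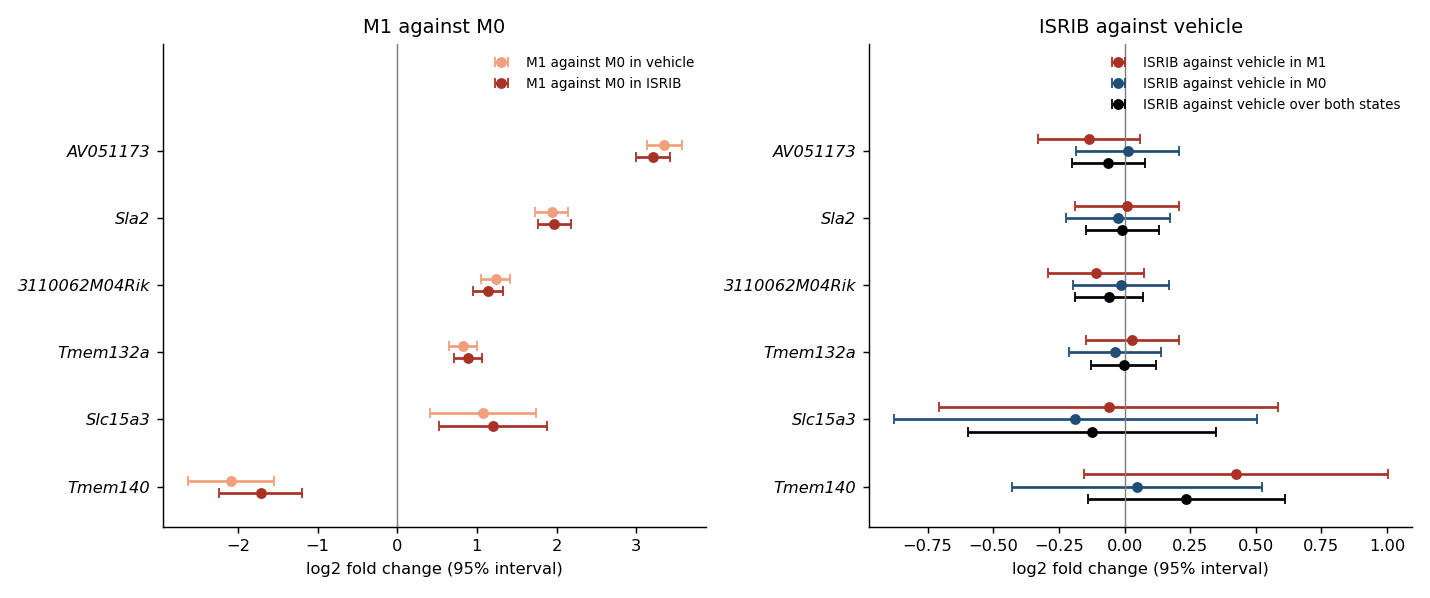
Log2 fold changes with 95% intervals for the 6 tested symbols, M1 against M0 (left) and ISRIB against vehicle (right), from 1 edgeR fit over the 12 samples; the line at 0 is no change. In the M1 comparisons the interval of each symbol lies to 1 side of 0, with Tmem140 alone below it, and in the ISRIB comparisons every interval spans 0.

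With ISRIB present, the M1 against M0 comparison has its own 6 samples. All 6 tested symbols were called again, 5 higher and 1 lower, where 44.8% of all tested symbols were called (23.9% higher and 20.9% lower) and 55.2% had no overlap. AV051173 had 4099, 4064 and 3469 counts in ISRIB M0 and 29864, 30962 and 26856 in ISRIB M1, and its log2 fold change was 3.21 ± 0.103. Sla2 had 4019, 4203 and 4013 counts in M0 and 14134, 12086 and 12693 in M1 (1.97 ± 0.0996). For both, the M1 counts were all above the M0 counts.

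3110062M04Rik had 6301, 6901 and 6664 counts in ISRIB M0 and 12558, 11389 and 11598 in ISRIB M1, a log2 fold change of 1.14 ± 0.0902. Tmem140, its partner, had 212, 187 and 181 counts in M0 and 29, 42 and 74 in M1 (-1.71 ± 0.253). The 74 counts of ISRIB M1 replicate 3 were the highest M1 value of Tmem140 and still below every M0 value.

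Tmem132a had 13848, 14141 and 14195 counts in ISRIB M0 and 20620, 21626 and 21408 in ISRIB M1, with a log2 fold change of 0.89 ± 0.0865. Slc15a3 had 40, 51 and 28 counts in M0 and 91, 88 and 44 in M1 (1.21 ± 0.328). Its raw counts again overlapped, through the 44 counts of replicate 3, and its CPM did not. The adjusted p-values of the 6 symbols ran from 1.85e-18 for AV051173 to 0.004 for Slc15a3 by edgeR's quasi-likelihood test.

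The comparison of ISRIB with vehicle asks whether inhibiting the integrated stress response changes these levels. None of the 6 tested symbols was called, and neither was any of the 2356 tested symbols (0.0% called), in M1, in M0, over both states or in the interaction, by edgeR's quasi-likelihood test. At an unadjusted p of 0.05 the 6 symbols also gave 0 calls, where 5.69% of all tested symbols passed in M1, 6.07% in M0, 6.2% over both states and 7.09% in the interaction. DESeq2's Wald test and limma called 0 symbols in these comparisons as well. In each state the ISRIB and vehicle CPM values of each of the 7 symbols overlapped, while 11.6% of all tested symbols did not overlap in M1 and 11.3% in M0.

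The intervals show how large a change the data leave room for. Over both states, ISRIB minus vehicle was -0.236% for Tmem132a (95% interval -8.52% to 8.79%) and -0.544% for Sla2 (-9.75% to 9.6%). It was -4.1% for 3110062M04Rik (-12.3% to 4.92%) and -4.18% for AV051173 (-12.9% to 5.46%). For these 4 symbols, changes above 13% in either direction fall outside the interval. The partners were less precise: Slc15a3 differed by -8.24% (-33.9% to 27.4%) and Tmem140 by 17.7% (-9.22% to 52.6%).

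Within M1 cells the same held with wider intervals. AV051173 was at 75828 ± 6453 CPM with vehicle and 69017 ± 5895 with ISRIB (SD, n = 3), a difference of -8.98% (95% interval -20.5% to 4.18%). The width of that interval depends on the fit: its log2 difference was -0.136 ± 0.0946 (SE). With replicate number added to the fit it was -0.136 ± 0.0635 (adjusted p 0.826, edgeR's quasi-likelihood test). 3110062M04Rik was at 30203 ± 1666 and 28040 ± 3010 CPM (-7.16%, -18.2% to 5.41%), and Tmem132a at 49070 ± 1515 and 50075 ± 1499 CPM (2.05%, -9.71% to 15.3%). The vehicle and ISRIB samples overlapped for each of the 3 symbols.

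Sla2 in M1 was at 30550 ± 1423 CPM with vehicle and 30729 ± 4191 with ISRIB (0.583%, -12.3% to 15.3%). Slc15a3 was at 183.4 ± 55.4 and 176 ± 65 CPM (-4.1%, -38.7% to 50.1%). Tmem140 was at 84.5 ± 11 CPM with vehicle and 113.4 ± 53 with ISRIB, where 173.3 CPM came from replicate 3 and the other values were 72.5 and 94.3. Its log2 difference was 0.42 with an adjusted p of 0.926 by edgeR's quasi-likelihood test, and -0.02 without that library.

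In M0 cells the differences lay between -12.2% for Slc15a3 (95% interval -45.6% to 41.8%) and 3.25% for Tmem140 (-25.8% to 43.6%). The 4 high symbols were between -2.47% for Tmem132a (-13.7% to 10.2%) and 0.869% for AV051173 (-12% to 15.6%). The interaction compares the M1 change with ISRIB to that with vehicle. It was -0.15 on the log2 scale for AV051173 (95% interval -0.43 to 0.13) and 0.38 for Tmem140 (-0.37 to 1.13), with adjusted p-values of 0.897 and 0.903 by edgeR's quasi-likelihood test. Without ISRIB M1 replicate 3 the interaction of Tmem140 was -0.08.

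The replicates show the precision behind these values. For the 4 high symbols the coefficient of variation of CPM within a group ran from 2.68% (3110062M04Rik, ISRIB M0) to 13.6% (Sla2 in ISRIB M1 and AV051173 in ISRIB M0). Counting error alone would give 0.573% to 1.61%, so counting error was a small part of their spread. edgeR's biological coefficient of variation was 0.0946 for Tmem132a, 0.095 for 3110062M04Rik, 0.102 for Sla2 and 0.103 for AV051173, all within the lowest 2.55% of tested symbols, and the common value was 0.275. These 4 were chosen for high counts, while 836 of the 2356 tested symbols had a mean of at least 50. They were not ranked against symbols of like counts.

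The partners were noisier in counts. Slc15a3 varied by 26.4% to 36.9% within groups, where counting alone gives 11.6% to 15.9%, and Tmem140 by 9.33% to 46.8%, where counting gives 7.19% to 17.1%. Their biological coefficients of variation were 0.254 (percentile 36.4) and 0.191 (percentile 25.1). Rab5if varied by 87% to 122%, where counting gives 28.1% to 86.6%, and its counts were too low for it to be tested. A count of 0 in a library allows up to 3 counts, and such limits cover counting error only.

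**Figure D4:**
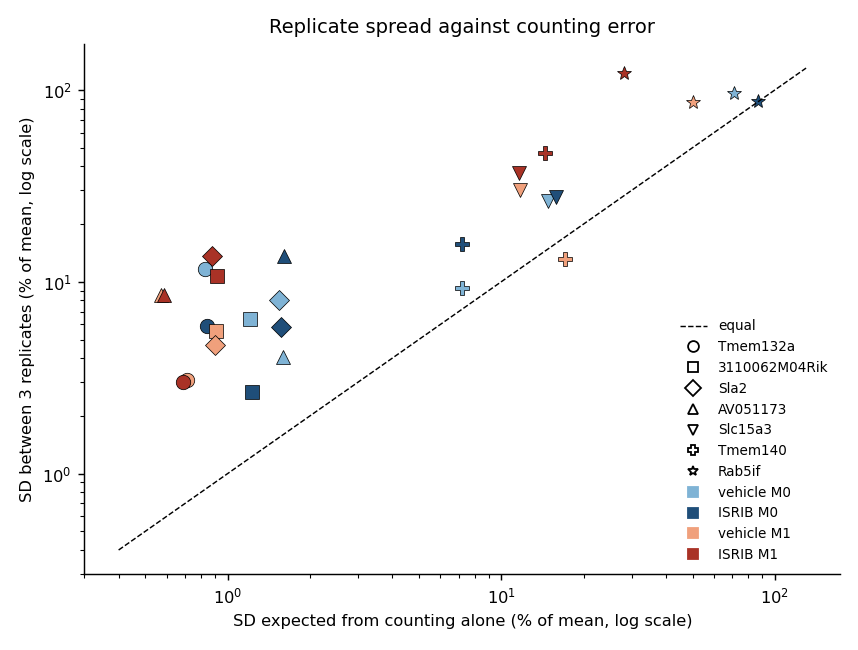
SD of CPM between the 3 replicates of a group against the SD that counting alone gives, both in percent of the mean and on log axes, with a point per symbol and group; the dashed line marks equal values. The 4 high symbols lie above the line at 2.68% to 13.6%, and Tmem140 in vehicle M1 (13.1% against 17.1%) lies below it.

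The split of counts within a pair was not used in the choice and was compared between the 6 M1 and the 6 M0 samples. Vehicle and ISRIB samples were treated as independent, and the labels do not say whether same-numbered samples share an animal. Tmem140 held 2.79% ± 0.266 of the counts of its pair in M0 (SD, n = 6; lowest 2.56%, highest 3.26%) and 0.345% ± 0.149 in M1 (0.23% to 0.634%). The groups did not overlap. The difference of -2.45 percentage points had a two-sided exact permutation p of 0.00216, the smallest that 924 regroupings can give, and 0.00649 after Benjamini-Hochberg adjustment over the 3 pairs. It was -2.46 in vehicle samples alone and -2.44 in ISRIB samples alone. Since the counts of Tmem140 fell and those of 3110062M04Rik rose without overlap, the shares could not overlap either. The p was thus fixed at its floor by the changes given above and adds no separate support. Permuted within same-numbered replicates, the adjusted exact permutation p was above 0.05, as is the smallest p that this permutation allows.

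Slc15a3 held 0.297% ± 0.0676 of the counts of its pair in M0 and 0.361% ± 0.106 in M1, and the groups overlapped (exact permutation p 0.24, adjusted 0.36). Both symbols of that pair rose, and their split did not differ beyond the spread. Rab5if held 0.0409% ± 0.0365 in M0 and 0.062% ± 0.0752 in M1 (exact permutation p 0.69, adjusted 0.69). Without ISRIB M1 replicate 1 the difference for Rab5if changed sign, from 0.0211 to -0.00885 percentage points.

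**Figure D5:**
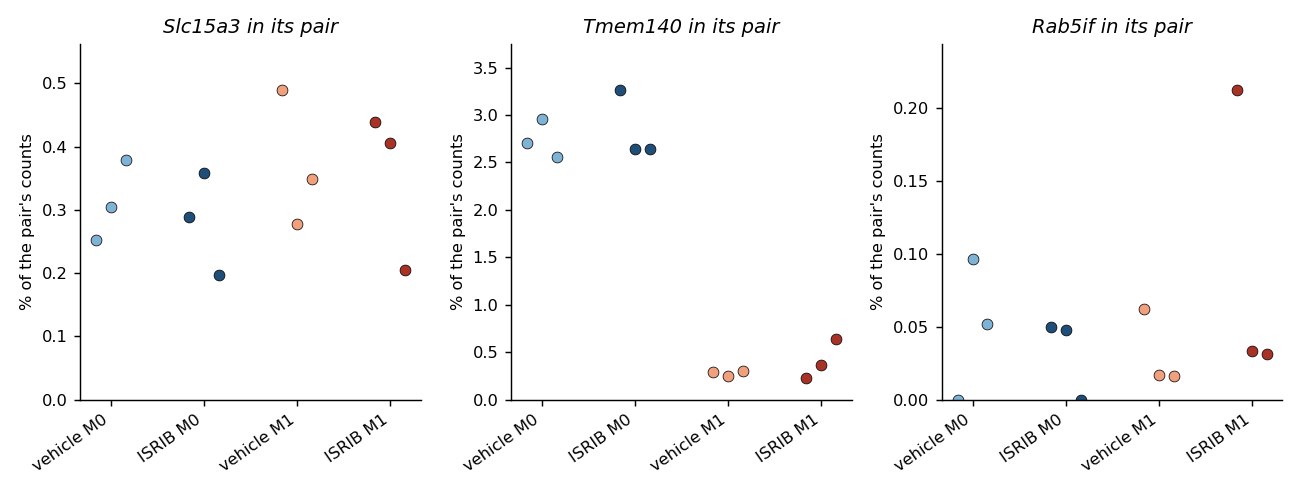
Share of the counts of a pair, in percent, that fell on the less counted symbol, with a point per sample in the 4 groups and linear axes that differ between panels. The share of Tmem140 is 2.56% to 3.26% in M0 and 0.23% to 0.634% in M1, and in the other panels the states overlap.

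Slc15a3 belongs to a family of proton-coupled peptide transporters with 5 genes in the list used here. It was the only one tested (1 of 5, called higher), and Slc15a4, its closest relative in endolysosomes, had at most 8 counts. In a list of 12 symbols for endolysosomal sensing of nucleic acids and muropeptides, where Slc15a3 is a member, 3 were tested and 2 were called higher in vehicle M1, Slc15a3 and Irf5. With ISRIB 1 was called, Slc15a3. Of all tested symbols, 24.3% were called higher in vehicle M1 and 23.9% with ISRIB. The median log2 fold change of the tested 3 was 0.673 in vehicle, beside 0.011 over all symbols. That median is the value of Unc93b1, which was not called (adjusted p 0.401, edgeR's quasi-likelihood test). The 3 include Slc15a3, itself a chosen symbol, so the median adds no separate support. Irf5, a transcription factor downstream of the listed sensors, shares exon bases with Tnpo3 on the other strand. Its counts cannot be told apart from reads of Tnpo3. Irf5 had a log2 fold change of 0.32 (adjusted p 0.0318, edgeR's quasi-likelihood test), and 0.02 with library totals alone. Its call was also lost without M0 replicate 2 or 3 or any 1 of the 3 M1 samples (adjusted p 0.0588 to 0.122) and with no count filter (0.48). With ISRIB its value was 0.27 (adjusted p 0.071), and -0.02 with library totals alone. It was called with ISRIB under 5 other settings, at values of 0.27 to 0.34: DESeq2 size factors (adjusted p 0.0424), upper-quartile scaling (0.0393), a minimum mean count of 50 (0.0258), DESeq2's Wald test (0.0464) and limma (0.0195).

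Tmem132a was the only one tested of the 5 Tmem132 genes, and of the others Tmem132b had at most 1 count. In the list for non-homologous end joining, 11 symbols were in the table and 2 were tested. 3110062M04Rik rose, and Dclre1c, the nuclease Artemis, had a log2 value of 0.39 (adjusted p 0.713, edgeR's quasi-likelihood test). Dclre1c shares exon bases with Suv39h2 on the other strand. Xrcc6, which encodes a subunit of the Ku complex that Cyren binds, had at most 4 counts and was not tested.

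Of 11 Src-like adaptors and their partners, 4 were tested. Among all tested symbols 24.3% were higher and 20.5% lower in vehicle M1, and 23.9% and 20.9% with ISRIB. In vehicle M1, Sla2 and the kinase Lyn (2.09 ± 0.34, adjusted p 1.48e-05, edgeR's quasi-likelihood test) were higher and the M-CSF receptor Csf1r was lower (-1.31 ± 0.427, adjusted p 0.0145). Syk had a log2 value of 0.86 (adjusted p 0.403). The median of the 4 was 1.4, beside 0.011 over all symbols. It includes Sla2, whose choice by mean count favoured a rise, so it adds no separate support. With ISRIB, Sla2 and Lyn (1.66 ± 0.335) were again higher, while Csf1r was at -1.01 (adjusted p 0.0602) and Syk at 1.95 (adjusted p 0.0659). Csf1r was called there with library totals (-1.29, adjusted p 0.0174) and without ISRIB M1 replicate 3 (-1.31, adjusted p 0.0441), and Syk by limma (2.04, adjusted p 0.03). Leaving out any of 4 vehicle libraries (M0 replicates 1 and 2, M1 replicates 1 and 2) ended the vehicle call of Csf1r, at log2 values of -0.97 to -1.2 and adjusted p-values of 0.0529 to 0.0893. The related adaptor Sla had at most 12 counts and was not tested. Like Sla2, Lyn and Csf1r share exon bases with a gene on the other strand (Gm26857 and Hmgxb3), so the same limit applies to their counts.

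Rab5if stands in a list of 13 symbols for the multipass translocon and Rab5 partners, of which 2 were tested. Tmco1, a translocon subunit and calcium channel, fell in M1 by a log2 fold change of -5.02 ± 0.642 in vehicle (adjusted p 4.07e-07) and -1.88 ± 0.471 with ISRIB (adjusted p 0.00208, edgeR's quasi-likelihood test). The interaction of Tmco1 was 3.15 with an adjusted p of 0.211 by the same test. Tmco1 had 3.32 ± 2.88 CPM in vehicle M1, near the floor of the counts. The size of its vehicle fall and of the interaction is therefore uncertain. Wdr83os, which shares exon bases with Wdr83 on the other strand, had log2 values of -1.16 and -0.09 (adjusted p 0.19 and 0.921, same test). Rab5a, Rab5b and Rab5c had at most 4, 8 and 17 counts.

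Of the 8 macrophage markers, 7 were tested, and 4 were higher and 2 lower in vehicle M1, where 24.3% of all tested symbols were higher and 20.5% lower. Adgre1, Cd14, Itgam and Fcgr1 rose, with log2 fold changes of 1.67, 2.35, 2.16 and 4.04, and Lyz2 (-2.26) and Csf1r fell. Fcgr1 had 3.62 ± 3.58 CPM in vehicle M0 and 3.64 ± 6.3 in ISRIB M0, near the floor, so the size of its change is uncertain. Leaving out 1 vehicle library ended the call of Adgre1 in 4 cases (adjusted p 0.0953 to 0.13: M0 replicates 2 and 3, M1 replicates 1 and 3), of Cd14 in 2 (0.051 and 0.0787: M0 replicate 1, M1 replicate 2) and of Fcgr1 in 1 (0.0774: M1 replicate 3). The call of Adgre1 was also lost with library totals (0.0728), DESeq2's Wald test (0.0654) and limma (0.0958). With ISRIB 3 were higher and 1 lower, beside 23.9% and 20.9% of all tested symbols: Adgre1 (2.29), Cd14 (2.61) and Itgam (2.21) rose and Lyz2 (-1.19) fell. Fcgr1 was at 2.49 with ISRIB (adjusted p 0.0614), and was called by limma (0.0299), without ISRIB M0 replicate 2 (0.0051) and without ISRIB M1 replicate 1 (0.0428). The summed counts of the 8 markers were 257 to 461 in vehicle M0 and 110 to 262 in vehicle M1. The part of cell makeup in the changes of the 7 symbols was not tested.

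The symbols most like each of the 6 better counted symbols were taken by Pearson's r of log2(CPM + 1) over the 12 samples among 836 symbols with a mean of at least 50 counts. These samples share their groups, so a high r reflects mainly the M0 and M1 levels. Tmem132a was closest to Ccdc167 (r = 0.994), Fam166a (0.993) and Fancl (0.993). 3110062M04Rik and Sla2 were close to each other (0.997), and 0.95 after group means were taken out. Both were also close to Mir6340 (0.994 and 0.998) and AV051173 (0.994 and 0.996).

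AV051173 itself was closest to Med7 (0.997), Sla2 (0.996) and Gm14023 (0.996), and without group means its r with Med7 was -0.44. Tmem140 was closest to Mtif3 (0.976), Orc3 (0.973) and Bbof1 (0.971), which also fell in vehicle M1, with log2 values of -0.78, -1.53 and -1.93. Slc15a3, with fewer counts, reached 0.934 with Dgke, 0.912 with Trmt13 and 0.893 with Trpt1. Apart from Orc3, and from AV051173, which was not matched in GENCODE, each of these like symbols also shares exon bases with a gene on the other strand, such as Tubb4b for Fam166a and Il1a for Gm14023. Such an overlap was common among well-counted symbols, at 97 of the 100 most counted matched symbols, so it does not set the like symbols apart.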

How the data were processed

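For each gene symbol the authors deposited whole-number counts in 12 samples and, in another table, log2 values, and the column names matched the sample descriptions. Each deposited log2 value equals log2(count / library factor + 1), with factors of 0.8071 to 1.221. FastQC, HTSeq, DESeq2 and the build mm10 are named in the submitters' processing notes. The aligner, the annotation and the strand setting of the counting are not given in the sources used here. Per the labels, libraries were made with a strand-specific TruSeq mRNA kit and read on a NovaSeq.

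Counts were tested with edgeR 4.0.16 in R 4.3.3 (quasi-likelihood test, TMM scaling, filterByExpr with a minimum count of 10 and total of 15). This left 2356 of 24552 symbols, with 97.65% of the counts, in 1 fit over 12 samples without a replicate block, and p-values were adjusted by Benjamini-Hochberg over all of them. CPM used the library totals of the tested symbols times TMM factors. Library totals were 439976 to 514037 counts, and 1 count was worth 1.79 to 2.57 CPM. The fit was tested on simulated data. Shares within pairs were compared by exact permutation. Alternatives were DESeq2 1.42.0, limma 3.58.1 on the log2 values, other scalings and filters, the replicate block, compared groups only, each sample left out, and pairs summed.

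Replicates of a group differed by 4.46 to 7.06 times the chi-square per degree of freedom that sampling noise gives, so none was counted as a duplicate. Gene positions and exons came from GENCODE vM21, and those of AV051173, synonyms and promoters from RefSeq GRCm38.p6. The 7 symbols and the gene lists were chosen with earlier results of these data known. Named besides the 7 were the 3 symbols most like each one, listed genes past the threshold or tested beside them, the most counted symbols and overlapping or adjacent genes; low-count list members and single markers were named after their values were seen.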

Additional observations from a re-analysis of the deposited data

How the results depend on the processing

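In the M1 against M0 comparisons the 6 tested symbols kept their direction under every alternative run, and their calls too, except that Slc15a3 in vehicle lost its call with library totals alone and without vehicle M1 replicate 1, as given in the report. The number of symbols called fell from 1055 to 530 in vehicle and from 1055 to 523 with ISRIB under a minimum mean count of 50, a filter that leaves fewer genes. For ISRIB against vehicle, dropping the filter gave 10 calls in M0, 9 in the interaction and 2 over both states in place of 0, and none was among the 6; the cause was not tested. Leaving out 1 sample at a time gave 0 to 6 calls in M0, the most without ISRIB M0 replicate 1, and 0 to 1 in M1, 0 to 4 in the interaction and 0 to 2 over both states.

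Over all tested symbols, deviations of same-numbered samples correlated by -0.06 to 0.113. That does not exclude a replicate effect shared by single symbols. Sla2, 3110062M04Rik and AV051173 each had their highest CPM of every group in replicate 1, while the other tested symbols did not. With the replicate block, the SE of the vehicle M1 against M0 change was 0.0698 in place of 0.104 for AV051173. For Sla2 it was 0.0697 in place of 0.0995. With the replicate block the interaction had 3 calls in place of 0, and M1 against M0 had 1047 calls in vehicle and 1026 with ISRIB. The Tmem140 share difference, -2.45 percentage points, had an adjusted exact permutation p of 0.0938 within the block, so the call was lost there; this is the smallest p that permutation within the block allows after adjustment. It was -2.46 in vehicle samples and -2.44 in ISRIB samples, each with an adjusted p of 0.3, and 3 samples against 3 cannot go below 0.10 unadjusted. The Rab5if share difference was -0.0175 in vehicle samples in place of 0.0211, and ran from -0.00885 to 0.0322 with 1 sample left out.

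No ISRIB difference of the 6 symbols was called under any alternative, and those near 0 changed sign. Over both states Tmem132a moved from -0.0034 to 0.0029 (DESeq2 size factors), 0.0031 (library totals) and 0.0093 (mean of at least 50), where Sla2 moved to 0.0039. With that filter 3110062M04Rik in M0 was 0.0033. With limma, Sla2 in M1 was -0.00033 and AV051173 in M0 was -0.00301. With 1 sample left out, log2 values in M0 ran from -0.116 to 0.0282 for Tmem132a, -0.344 to 0.0525 for Slc15a3, -0.0372 to 0.0604 for 3110062M04Rik, -0.0751 to 0.123 for Tmem140, -0.0597 to 0.0606 for Sla2 and -0.0782 to 0.116 for AV051173. In M1 they ran from -0.292 to 0.209 for Slc15a3, -0.0208 to 0.656 for Tmem140 and -0.107 to 0.104 for Sla2. In the interaction they ran from -0.115 to 0.386 for Slc15a3, -0.0761 to 0.601 for Tmem140 and -0.0913 to 0.118 for Sla2. Over both states they ran from -0.0412 to 0.0301 for Tmem132a, -0.235 to 0.0161 for Slc15a3 and -0.0614 to 0.0453 for Sla2. Rab5if did not pass the count filter and was not tested, and counting error was a small part of the spread of the 4 high symbols.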
